A study of Homo sapiens with 12 samples.

Results

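The replication-dependent and clustered histone genes were followed on 12 Affymetrix expression arrays of 2 human acute myeloid leukaemia cell lines. Members were the probe sets whose gene symbols all carry the clustered histone naming, either the older HIST names or the current names for linker histones H1-1 to H1-6 and core histones H2AC, H2BC, H3C and H4C. They numbered 62 of 22215 probe sets tested. Of these, 42 were annotated to one gene and together measured 41 genes, and the other 20 were annotated to several histone genes at once. The probe sets of one gene divided into 6 for H1, 8 for H2A, 13 for H2B, 7 for H3 and 8 for H4. Every value below is the log2 RMA value of a probe set, and changes are differences of such values, CHD4 shRNA minus scrambled.

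U937 is a monocytic line and MV4-11 a myelomonocytic line with an MLL fusion. Each line carried a lentiviral hairpin construct that also expressed green fluorescent protein, with either a scrambled hairpin or a hairpin against CHD4, the ATPase of the NuRD remodelling complex. This gave 4 groups of 3 arrays, U937 scrambled, U937 CHD4 shRNA, MV4-11 scrambled and MV4-11 CHD4 shRNA. All cells grew in RPMI with fetal bovine serum, and no group without a vector was analysed here. The sample labels write CDH4 for the target where the series description writes CHD4, and CHD4 is used here because its probe sets were lower in those groups. The series description calls the triplicates biological, and p-values measure the spread between these arrays. The labels do not say when after transduction RNA was taken, nor whether cells were sorted or a line was cloned.

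Replication-dependent histone genes supply the histones that package newly made DNA. They have no introns, lie mostly in clusters, and are transcribed in S phase under the coactivator NPAT, with the octamer-binding factor POU2F1 acting on H2B promoters. Their messages normally end in a stem-loop bound by SLBP instead of a poly(A) tail, although some members also make polyadenylated transcripts. The labels name the standard Affymetrix cRNA protocol, which as commonly run for such arrays starts from poly(A). Tails vary between these genes and were not measured, so a change in the amount of transcript and a change in the share with a tail cannot be told apart. In RNA from bulk cultures, fewer cells that express a gene and less RNA per cell cannot be told apart either.

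CHD4 itself was lower with its hairpin in both lines. Its 3 probe sets were between 3.36-fold and 4.58-fold lower, past the limma threshold in both lines, and no array of the scrambled groups overlapped one of the CHD4 shRNA groups. In MV4-11 the CHD4 value of probe set 201183_s_at was 8.79, 8.85 and 8.39 in CHD4 shRNA arrays 1, 2 and 3. The median over all probe sets lay between 6.97 and 7.02 on every array. Of the general myeloid markers, LYZ, ITGB2, CEBPA and PTPRC had high mean values over the 12 arrays (13.58, 11.85, 11.47 and 10.89), whereas MPO at 5.46 and SPI1 at 6.45 were low. Both fibroblast and erythroid lists had no member past the threshold in either line, with 5 of 5 and 2 of 6 members measured. Of 7 measured lymphoid markers, CD2 and CD79B rose in both lines. Of 10 monocyte maturation markers, all measured, 4 rose and 1 fell in each line. Of all probe sets, 3.88% rose and 3.59% fell in MV4-11, and 1.86% rose and 2.65% fell in U937. In MV4-11 CD36 rose by 2.30, ITGAM by 1.41, FCER1G by 1.41 and AIF1 by 0.56, and CTSD fell by 0.71. These values are from the brightest probe set of each gene. On other probe sets ITGAM changed by -0.11, CD36 by 1.94 and 0.16, and AIF1 by 0.75, 0.67 and -0.01. The mean level of the list was 7.04 to 7.18 on the scrambled and 7.49 to 7.86 on the CHD4 shRNA arrays. The part of these markers in the histone values was not tested.

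In MV4-11, some clustered histone genes rose with the CHD4 shRNA. Of the 42 probe sets of one gene, 10 rose (limma, adjusted p under 0.05) and 0 fell. Of the 10, 6 were H2B probe sets, and H1, H2A, H3 and H4 gave 1 each. Across all probe sets, 3.88% rose and 3.59% fell in this comparison. The 10 probe sets measured 9 genes: H2BC12, H2BC12L, H2BC5 (by 2 probe sets), H2BC6, H2BC9, H1-2, H2AC17, H3C3 and H4C11. Their log2 changes ran from 0.67 to 2.01, with 8 of the 42 at least 2-fold higher, and on all 10 the CHD4 shRNA arrays lay above every scrambled array. The median change over the 42 was 0.24, beside -0.03 over all probe sets, and 29 of the 42 were above 0, as were 44.4% of all probe sets. An unadjusted p under 0.05 was reached by 18 of the 42, beside 22.3% of all probe sets. Groups did not overlap for 11 of the 42 upward, where 10.8% of all probe sets did so, and for 1 downward, where 13% did.

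**Figure D1:**
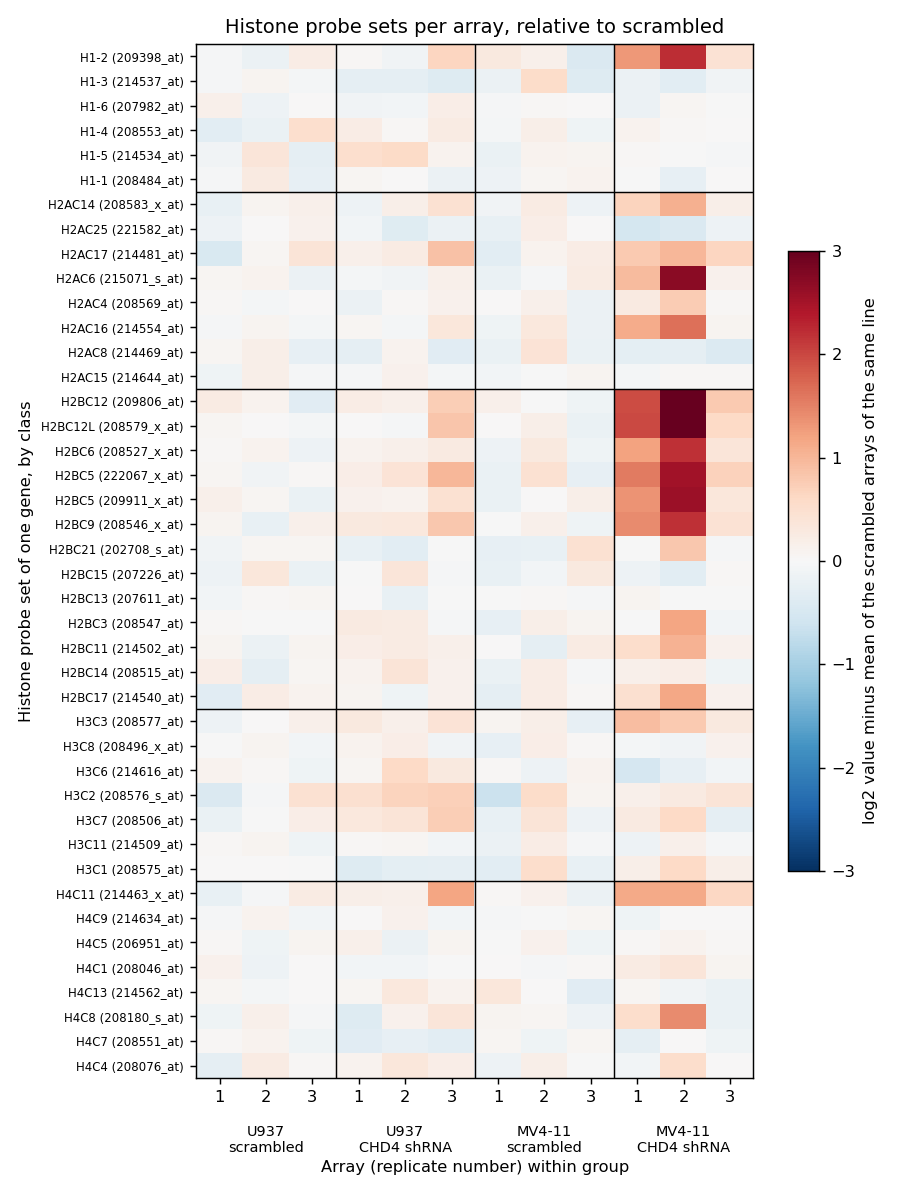
Log2 value of each of the 42 histone probe sets of one gene on each of the 12 arrays, minus the mean of the scrambled arrays of the same line, with rows grouped by class and ordered by mean value and columns by group and replicate number. Red cells are higher than the scrambled mean, and the reddest block holds the H2B rows at the top of their class in the MV4-11 CHD4 shRNA arrays, where H2BC12 reached 13.01 on array 2.

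The MV4-11 count rested on few arrays. Replicate numbers paired the MV4-11 arrays, and with the number as a block in that line 15 of the 42 rose, beside 6.89% of all probe sets; all 10 were among the 15. The count was 2, 3 and 0 without scrambled array 1, 2 or 3, and 0, 3 and 17 without CHD4 shRNA array 1, 2 or 3. Over all probe sets the corresponding shares were 2.71%, 2.13%, 1.89%, 1.34%, 2.21% and 7.48%. The smallest of the 10 changes in these fits was 0.54. Their sign could not turn, because on all 10 every CHD4 shRNA array lay above every scrambled array. In a fit of the MV4-11 arrays alone, whose spread is estimated without U937, the count was 2 (H2AC17 and H4C11) beside 1.71% of all probe sets.

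The 6 H2B probe sets that rose, of 13, measured 5 genes, each of which encodes a core H2B protein. H2BC12 changed most. Its scrambled MV4-11 arrays read 9.87, 9.69 and 9.58 and its CHD4 shRNA arrays 11.67, 13.01 and 10.50. Array 2 was highest and array 3 lowest, and array 3 still exceeded the highest scrambled array. The group means were 9.71 ± 0.15 and 11.73 ± 1.26 (SD, n = 3), a 4.04-fold rise (log2 2.01, SE 0.44, limma adjusted p = 0.016).

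H2BC12L, a gene on chromosome 21 named for its likeness to H2BC12, gave the next largest change. It read 8.72, 8.89 and 8.51 on the scrambled arrays and 10.69, 11.78 and 9.30 on the CHD4 shRNA arrays. The rise was 3.69-fold (log2 1.88, SE 0.44, limma adjusted p = 0.022), and the arrays had the same order as for H2BC12. Its probe set has the suffix _x_at, which marks probes that may also bind related transcripts, and the near-identical H2B coding sequences make such sharing a limit for all 5 rising H2B probe sets with that suffix. The H2BC12 probe set has the plain suffix _at.

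H2BC5 was measured by 2 probe sets that both rose. Probe set 222067_x_at read 7.64, 8.30 and 7.60 on the scrambled arrays and 9.40, 10.36 and 8.53 on the CHD4 shRNA arrays, a log2 change of 1.58 (SE 0.36, limma adjusted p = 0.018). Probe set 209911_x_at read 7.41, 7.61 and 7.79 against 8.96, 10.18 and 7.95, a change of 1.43 with limma adjusted p = 0.040. On the second probe set, CHD4 shRNA array 3 exceeded the highest scrambled array by little.

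H2BC9 and H2BC6 followed. H2BC9 read 7.05, 7.23 and 6.94 on the scrambled arrays and 8.50, 9.26 and 7.51 with the CHD4 shRNA, a log2 change of 1.35 (limma adjusted p = 0.022). H2BC6 read 8.07, 8.51 and 8.09 against 9.43, 10.41 and 8.58, a change of 1.25 (limma adjusted p = 0.033). On both, array 2 was again highest and array 3 lowest, without overlap. For H2BC6, CHD4 shRNA array 3 at 8.58 exceeded the highest scrambled array at 8.51 by little. The other 7 H2B probe sets did not pass: H2BC17 changed by 0.60 (limma adjusted p = 0.13; 0.040 with the replicate block), H2BC11 by 0.56 (0.098), and H2BC3, H2BC21, H2BC14, H2BC13 and H2BC15 by between -0.15 and 0.37.

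**Figure D2:**
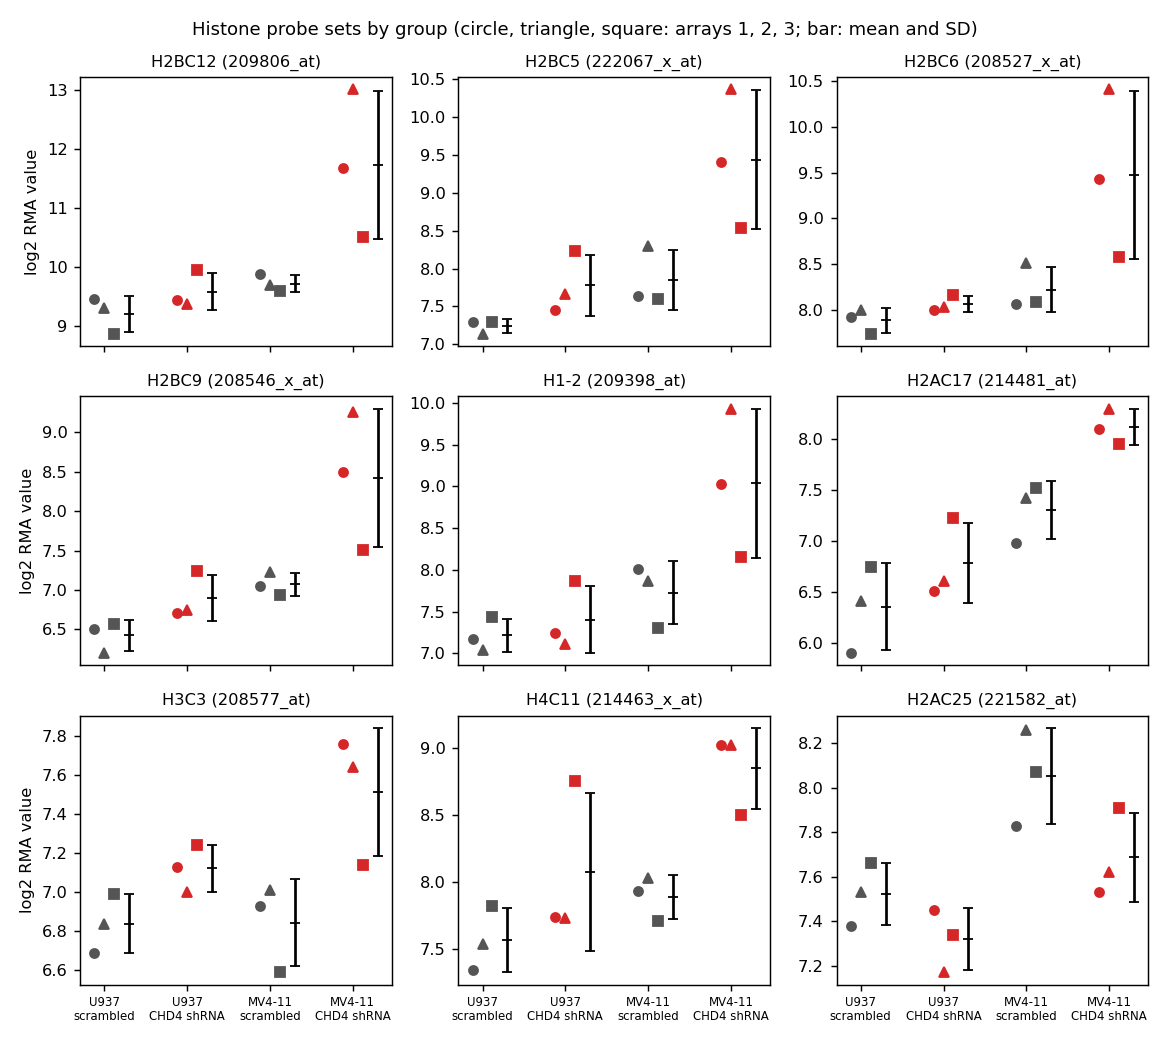
Log2 RMA value of 9 histone probe sets in the 4 groups; each point is 1 array, its shape gives the replicate number, and the bar beside each group is the mean and SD of 3 arrays. In MV4-11 the first 8 panels have all CHD4 shRNA arrays above the scrambled arrays, while H2AC25 has overlapping groups.

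Promoter sequence was compared because these H2B genes moved together. RefSeq windows on GRCh38.p14, from 250 bases before to 50 after the annotated start, were found for 38 of the 41 genes. H2BC12L, H3C11 and H4C1 are named only. Below are the windows of 2 H2B genes that rose, H2BC12 (chr6:27146809-27147108, minus strand) and H2BC5 (chr6:26157871-26158170, plus strand), and of 2 that did not pass, H2BC17 (chr6:27893175-27893474, plus strand) and H2BC13 (chr6:27807880-27808179, minus strand). Each reads 5′ to 3′ along the gene, and capitals mark the octamer ATTTGCAT, the TATA box TATAAA and the CCAAT box CCAAT on either strand.
H2BC12: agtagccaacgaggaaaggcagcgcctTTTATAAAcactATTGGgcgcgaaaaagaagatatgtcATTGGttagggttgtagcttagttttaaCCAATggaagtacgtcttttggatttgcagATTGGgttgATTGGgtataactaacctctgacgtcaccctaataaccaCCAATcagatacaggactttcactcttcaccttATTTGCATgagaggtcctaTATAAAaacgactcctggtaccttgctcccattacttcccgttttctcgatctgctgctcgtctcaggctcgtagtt
H2BC5: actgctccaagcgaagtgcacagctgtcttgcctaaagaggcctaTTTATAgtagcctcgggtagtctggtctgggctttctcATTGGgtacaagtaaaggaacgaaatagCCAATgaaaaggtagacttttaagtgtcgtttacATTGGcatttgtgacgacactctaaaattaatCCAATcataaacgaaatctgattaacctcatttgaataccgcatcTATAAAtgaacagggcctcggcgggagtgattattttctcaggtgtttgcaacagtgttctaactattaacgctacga
H2BC17: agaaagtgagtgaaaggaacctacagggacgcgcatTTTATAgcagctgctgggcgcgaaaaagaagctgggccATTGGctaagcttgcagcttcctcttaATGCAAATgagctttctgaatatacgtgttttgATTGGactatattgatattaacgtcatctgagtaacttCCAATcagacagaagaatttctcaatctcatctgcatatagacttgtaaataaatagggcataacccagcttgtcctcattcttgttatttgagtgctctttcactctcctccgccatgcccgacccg
H2BC13: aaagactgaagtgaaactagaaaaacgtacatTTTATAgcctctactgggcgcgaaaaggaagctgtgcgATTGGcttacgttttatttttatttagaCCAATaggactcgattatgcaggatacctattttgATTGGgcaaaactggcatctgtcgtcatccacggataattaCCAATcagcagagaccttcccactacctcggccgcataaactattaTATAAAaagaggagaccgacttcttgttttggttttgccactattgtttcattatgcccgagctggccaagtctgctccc
These 4 windows show an octamer in one riser and not in the other, and in one gene below the threshold and not in the other. In H2BC12 the octamer begins 46 bases before the start and a TATA box 27 before; a second TATA match at 221 bases overlaps its own reverse complement. In H2BC5 a TATA box begins 28 bases before the start. The H2BC17 octamer lies on the opposite strand, in a stretch also covered by the window of its divergent neighbour H2AC17.

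The octamer was found in 14 of 38 histone windows (36.8%), beside 2.19% of the 27305 genes in the table. It was found in 6 of 8 H2A and 8 of 11 H2B windows and in 0 of the H1, H3 and H4 windows. TATAAA was found in 65.8% of histone windows, beside 14.0% of all genes, and CCAAT in 86.8%, beside 39.7%. Among H2B genes with a window, 3 of the 4 that rose in MV4-11 and 5 of the 7 others held the octamer. A match is a description of these letters in this window only.

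Of the 6 linker histone genes, whose proteins bind DNA between nucleosomes, only H1-2 rose in MV4-11. Its scrambled arrays read 8.01, 7.87 and 7.30 and its CHD4 shRNA arrays 9.03, 9.93 and 8.15. Array 3 exceeded the highest scrambled array by little. The rise was 2.48-fold (log2 1.31, SE 0.35, limma adjusted p = 0.040). H1-1, H1-3, H1-4, H1-5 and the testis gene H1-6 changed by between -0.20 and 0.05, and the class median was -0.02.

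Among 8 H2A genes, which encode the partner of H2B in the nucleosome, H2AC17 rose. It read 6.98, 7.42 and 7.52 on the scrambled MV4-11 arrays and 8.10, 8.30 and 7.95 on the CHD4 shRNA arrays. Its 3 CHD4 shRNA arrays lay closer together (SD 0.18) than those of the 6 H2B probe sets that rose (SD 0.88 to 1.26). The rise was 1.75-fold (log2 0.81, SE 0.23, limma adjusted p = 0.049), just inside the threshold.

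The H2A genes H2AC16, H2AC14 and H2AC6 fell short of the threshold and passed it with the replicate block. H2AC6, known for a polyadenylated form, read 6.77, 6.94 and 7.21 on the scrambled arrays and 7.93, 9.67 and 7.11 with the CHD4 shRNA. Array 3 lay within the scrambled range and array 2 stood far above it. The log2 change was 1.26 with an SE of 0.44 (limma adjusted p = 0.10; 0.039 with the block). H2AC16 changed by 0.95 (0.069; 0.0063 with the block), and H2AC14, the H2A probe set with the highest mean value, by 0.64 (0.086; 0.022 with the block). H2AC25, H2AC8, H2AC15 and H2AC4 changed by between -0.37 and 0.35.

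Of 7 H3 genes, H3C3 rose. It read 6.93, 7.01 and 6.59 on the scrambled arrays and 7.76, 7.64 and 7.14 on the CHD4 shRNA arrays, a log2 change of 0.67 (SE 0.16, limma adjusted p = 0.024). The scrambled and CHD4 shRNA arrays numbered 3 were the lowest of their groups. The other 6 changed by between -0.27 and 0.32; the largest of these, H3C1, had an adjusted p of 0.34 and passed with the block (0.046).

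Of 8 H4 genes, which encode the core histone that pairs with H3, H4C11 rose. It read 7.93, 8.03 and 7.71 on the scrambled arrays and 9.02, 9.02 and 8.50 on the CHD4 shRNA arrays. The log2 change was 0.96 (SE 0.24, limma adjusted p = 0.032). The H4C11 probe set also has the suffix _x_at, so its probes may bind related transcripts too. The other 7 changed by between -0.13 and 0.58. H4C1 had CHD4 shRNA arrays above all scrambled arrays with a change of only 0.23 (limma adjusted p = 0.20).

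The 20 probe sets shared by several histone genes are given by identifier, since they name no single gene. In MV4-11, 5 rose and 0 fell, beside 3.88% and 3.59% of all probe sets, and the median change was 0.46. They were 208490_x_at at 1.14, 214290_s_at at 1.14, 206110_at at 1.13, 207156_at at 0.76 and 208580_x_at at 0.70, with limma adjusted p between 0.018 and 0.044. With the replicate block 9 rose, beside 6.89% of all probe sets. The count was 0, 3 and 0 without scrambled MV4-11 array 1, 2 or 3, 0, 1 and 9 without CHD4 shRNA array 1, 2 or 3, and 2, 3 and 3 without U937 scrambled array 1, 2 or 3. In the same order, the shares of all probe sets that rose were 2.71%, 2.13% and 1.89%, then 1.34%, 2.21% and 7.48%, and then 3.01%, 3.1% and 3.57%.

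The probe set 206110_at, shared by 10 H3 genes, read between 5.98 and 6.32 on the scrambled MV4-11 arrays and 7.16, 7.93 and 6.61 on the CHD4 shRNA arrays. Its groups did not overlap and its arrays had the order seen for H2BC12. The probe set 205967_at, shared by 14 H4 genes, was the brightest member at a mean of 13.40 and hardly moved. It read 13.40, 13.52 and 13.29 against 13.49, 13.56 and 13.49, a log2 change of 0.11 with limma adjusted p = 0.61.

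In U937 no histone probe set passed the threshold. Of the 42 probe sets of one gene, 0 rose and 0 fell with limma, and 5 had an unadjusted p under 0.05. Over all probe sets, 1.86% rose, 2.65% fell and 17% had an unadjusted p under 0.05. The median change was 0.14, beside -0.00 over all probe sets, and 31 of the 42 were above 0, beside 49%. Groups did not overlap for 6 of the 42 upward and 3 downward, where 10.9% and 13.3% of all probe sets did so.

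The 10 probe sets that rose in MV4-11 changed by between 0.18 and 0.54 in U937, with limma adjusted p from 0.32 to 0.87. H2BC12 read 9.45, 9.30 and 8.86 on the U937 scrambled arrays and 9.43, 9.36 and 9.94 on the CHD4 shRNA arrays. The groups overlapped and array 3 was highest, as it was among the CHD4 shRNA arrays for all 10. The change was 0.37 with a 95% interval from -0.57 to 1.32 (limma adjusted p = 0.76), so a rise of more than 2-fold lies inside the interval. H2BC5 by 222067_x_at read 7.30, 7.14 and 7.29 against 7.45, 7.66 and 8.23, a change of 0.54 (limma adjusted p = 0.51) without overlap.

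H4C11 read 7.34, 7.54 and 7.82 on the U937 scrambled arrays and 7.74, 7.73 and 8.75 on the CHD4 shRNA arrays, where array 3 stood apart. Its change was 0.51 with limma adjusted p = 0.32. The lowest adjusted p in U937, 0.12, belonged to H4C7, which changed by -0.31. The largest change in U937 was 0.62 for H3C2, with limma adjusted p = 0.23.

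The change in MV4-11 was not shown to differ from that in U937. No probe set passed the interaction contrast of limma in either direction, nor did any of all 22215 probe sets (0%), of which 979 (4.41%) had an unadjusted p under 0.05. Of the 42, 7 had an unadjusted p under 0.05, and the lowest adjusted p was 0.94. For H2BC12 the MV4-11 change exceeded the U937 change by 1.64 with a 95% interval from 0.30 to 2.98 and an adjusted p of 0.94. For H2AC17 the difference was 0.38 with an interval from -0.32 to 1.08. All 10 differences were above 0, and 5 had an unadjusted p under 0.05. The 10 were chosen by their MV4-11 change, which is part of the difference, so these counts are no evidence on the lines. Over all 42, 25 differences were above 0 and 17 below, with a median of 0.19 beside -0.01 over all probe sets. The share of all probe sets with a difference above 0 was not computed.

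**Figure D3:**
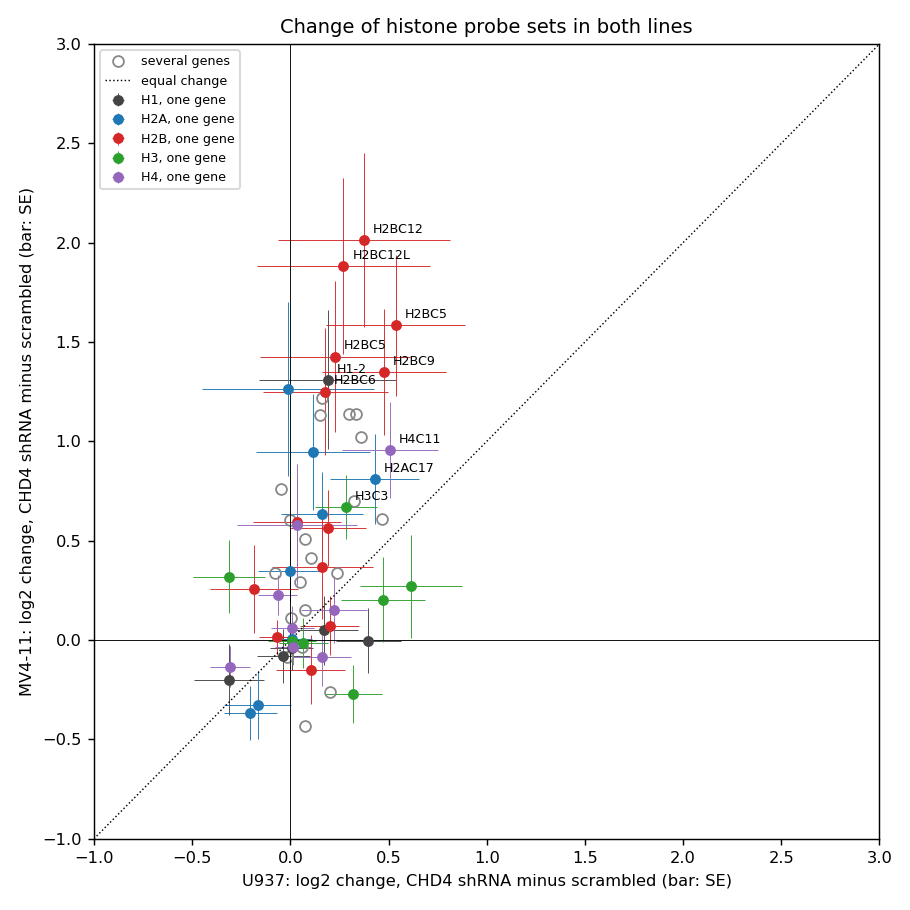
Log2 change in MV4-11 (vertical) against log2 change in U937 (horizontal) for the 42 histone probe sets of one gene, coloured by class with SE bars, and the 20 of several genes as open circles without bars; the dotted line marks equal change. The 10 labelled probe sets, past the threshold in MV4-11, lie above the dotted line at changes of 0.67 to 2.01, and between 0.18 and 0.54 in U937.

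Without the CHD4 shRNA, the histone probe sets tended to read higher in MV4-11 than in U937, with 2 past the threshold. The median difference between scrambled arrays over the 42 was 0.25, beside -0.04 over all probe sets, and 36 were above 0, where 41.9% of all probe sets were. H2AC17 and H2AC25 were higher in MV4-11 and 0 were lower, where 2.37% and 2.08% of all probe sets were. H2AC17 read 5.90, 6.41 and 6.75 in U937 against 6.98, 7.42 and 7.52 in MV4-11, without overlap, a 1.94-fold difference (limma adjusted p = 0.032). H2AC25, on chromosome 1, read 7.38, 7.53 and 7.66 against 7.83, 8.26 and 8.07, a difference of 0.53 (limma adjusted p = 0.044). In fits without 1 of the 12 arrays, H2AC17 passed in 8 and H2AC25 in 3. With the replicate number as a block in MV4-11 neither passed, and the count was 0, beside 1.13% of all probe sets. The scrambled MV4-11 arrays also serve as controls of the CHD4 shRNA comparison, where H2AC25 changed by -0.37 (limma adjusted p = 0.12).

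Probe sets of one gene were divided by their mean over the 6 scrambled arrays, which the CHD4 shRNA arrays do not enter. Of the 9 above the median of all probe sets, 7 rose in MV4-11, and of the 33 at or below it 3 rose (H2AC17, H2BC9 and H3C3). Over all probe sets the corresponding shares were 5.01% and 2.75%. Background can compress changes of dim probe sets, and its part in these counts was not tested. By probe design, 6 of 8 with the suffix _x_at, 0 of 4 with _s_at and 4 of 30 with _at rose, where 3.34%, 4.09% and 3.86% of all such probe sets did.

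**Figure D4:**
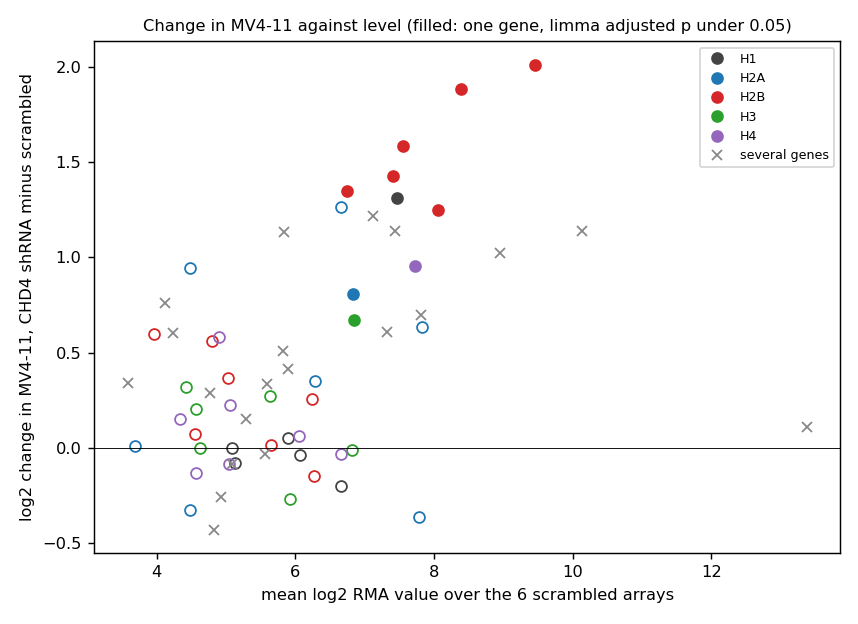
Log2 change in MV4-11 against the mean log2 RMA value over the 6 scrambled arrays for histone probe sets of one gene (circles by class, filled where they passed the threshold) and of several genes (crosses). Of the 10 filled circles, 7 are above the median scrambled level of all probe sets, and the brightest probe set, a cross at the far right, changed by 0.11.

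Position was compared through the order of protein-coding genes in the RefSeq table. Of the 41 genes, 38 lie on chromosome 6 (8 of which rose in MV4-11), 2 on chromosome 1 (0 rose) and 1, H2BC12L, on chromosome 21. H3C3 and H1-2 are direct neighbours and both rose, and so did the neighbours H2BC5 and H2BC6. H2BC5 also adjoins H1-4, which changed by 0.05, and H2BC9 lies between H3C7 at 0.20 and H3C8 at -0.01, none of which passed. H2BC12 adjoins H4C9, which changed by -0.03 and did not pass. Changes above and below the threshold thus lay side by side.

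The genes known to make polyadenylated forms were H1-2, H2AC6, H2BC5, H2BC12 and H2BC21 among those measured. In MV4-11, 3 of 5 rose (H1-2, H2BC5 and H2BC12), beside 3.88% of all probe sets, and the median change was 1.31. Of the 42 histone probe sets of one gene 10 rose, and these 3 genes are among them. Whether genes with polyadenylated forms differ from the other histone genes was not tested. In U937 0 rose (limma, with 0 at an unadjusted p under 0.05), beside 1.86%, and the median was 0.19. H2BC21, which lies on chromosome 1, read 6.40, 6.41 and 7.10 on the scrambled MV4-11 arrays and 6.62, 7.45 and 6.61 with the CHD4 shRNA. Its groups overlapped, and its change was 0.26 (limma adjusted p = 0.57).

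The variant histones replace the canonical ones at particular sites or times. Of 9 measured, 1 rose in MV4-11 and 0 in U937 (limma), and 2 rose in MV4-11 with the replicate block. Over all probe sets 3.88%, 1.86% and 6.89% did so. An unadjusted p under 0.05 was reached by 2 in each line, beside 22.3% of all probe sets in MV4-11 and 17% in U937. The median changes were 0.09 in MV4-11 and 0.07 in U937. H2AZ2, a form of H2A.Z, changed in MV4-11 by 0.41 on its brightest probe set (limma adjusted p = 0.030). Its other 2 probe sets changed by 0.80 and 0.83, with limma adjusted p of 0.038 and 0.0499. H2AX, the variant phosphorylated at DNA breaks, changed by 0.62 in MV4-11 on its brightest probe set. The limma adjusted p was 0.067, and 0.014 with the replicate block. Its other probe sets changed by 0.07, 0.26 and 0.22, with limma adjusted p of 0.75, 0.16 and 0.35.

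Regulators of histone gene transcription gave 1 of 9 measured members past the threshold in MV4-11 and 0 in U937; with the block 2 rose. That gene was CCNE2, a cyclin that activates CDK2 at the start of S phase, at 1.31 (SE 0.33, limma adjusted p = 0.030) in MV4-11 and 0.87 (0.18) in U937. NPAT changed by 0.17 and HINFP, which binds H4 promoters, by -0.02 in MV4-11, and neither passed. In the histone mRNA processing list 0 of 14 measured members passed in either line on the brightest probe set of each gene. An unadjusted p under 0.05 was reached by 2 in MV4-11 and 1 in U937, and 1 rose with the block. A dimmer probe set of the list member NCBP2 did pass in U937, with a change of -0.45 (limma adjusted p = 0.026). SLBP changed by 0.25 in MV4-11 and 0.02 in U937. In the cleavage and polyadenylation list 0 of 12 passed, with 4 at an unadjusted p under 0.05 in MV4-11 and 0 in U937. With the block 2 rose and 1 fell. Beside these lists, 3.88% of all probe sets rose in MV4-11 (6.89% with the block) and 1.86% in U937. The shares that fell were 3.59% and 2.65%, and 22.3% and 17% had an unadjusted p under 0.05.

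Of 25 histone chaperones, ASF1B, which hands H3 and H4 to the assembly factors in dividing cells, rose in both lines by 0.40 (limma adjusted p = 0.034 in U937 and 0.026 in MV4-11). NAP1L1, a carrier of H2A and H2B, fell in MV4-11 by 0.39 on its brightest probe set (limma adjusted p = 0.049). Its other probe sets changed by between -0.40 and -0.16 and did not pass (limma adjusted p from 0.061 to 0.37). In MV4-11 the dimmer probe sets of 2 further chaperones passed, ASF1A at 0.37 and ANP32B at -0.35 (limma adjusted p = 0.023 and 0.030). Their brightest probe sets changed by 0.26 and -0.30 and did not pass (limma adjusted p = 0.094 and 0.078). Among S phase genes, 26 of 27 were measured. In MV4-11 0 passed, 7 had an unadjusted p under 0.05 and 3 rose with the block, and the median change was 0.17. In U937 LIG1, the replication ligase, fell by 0.54 (limma adjusted p = 0.014), and the median was -0.12. Beside both lists, 3.88% of all probe sets rose and 3.59% fell in MV4-11, and 1.86% rose and 2.65% fell in U937. With the block 6.89% rose in MV4-11, where 22.3% had an unadjusted p under 0.05 in the main fit.

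The size of the rise differed between the MV4-11 CHD4 shRNA arrays. The median over the 10 probe sets, relative to the scrambled mean, was 1.33, 2.20 and 0.52 on arrays 1, 2 and 3. Array 2 was highest for 8 of the 10 and array 3 lowest for all 10. Of all 862 probe sets that rose in MV4-11, array 2 was highest for 55.2% and array 3 lowest for 69.7%. In U937 the same median was 0.16, 0.16 and 0.78. Without MV4-11 CHD4 shRNA array 2, 3 of the 42 rose (H2BC12, H2BC12L and H2BC5 by 222067_x_at), and the 10 changes ran from 0.61 to 1.37.

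The median of interferon-stimulated genes had the same order of arrays. Of 14 measured, 7 rose in MV4-11 (12 with the block) and 1, IRF7, in U937, on the brightest probe set of each gene. Of all probe sets, 3.88% rose in MV4-11 (6.89% with the block) and 1.86% in U937. In MV4-11 IFI27 rose by 3.21, IFI44 by 2.60, IFI6 by 1.84 and IFIT3 by 1.18 on the log2 scale (limma adjusted p from 0.0012 to 0.012). The other, dimmer IFI44 probe set changed by 0.25 (limma adjusted p = 0.56). The median of the list relative to the scrambled mean was 0.95, 2.02 and 0.58 on MV4-11 CHD4 shRNA arrays 1, 2 and 3. In U937 this median was -0.02, 0.09 and 0.19. The mean level of the list ranged from 6.39 to 6.45 on the scrambled MV4-11 arrays and from 7.14 to 8.80 on the CHD4 shRNA arrays. The S phase median was 0.17, 0.29 and -0.02 on those CHD4 shRNA arrays, and CHD4 was lowest on array 3. Relative to the scrambled array of the same number, the medians on arrays 1, 2 and 3 were 1.41, 2.05 and 0.68 for the histone probe sets, 0.91, 2.06 and 0.66 for the interferon list and -0.02, 0.25 and 0.22 for the S phase list. The order of arrays 1 and 3 thus turned for the S phase list and held for the other two. The part of any of these in the histone values was not tested.

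**Figure D5:**
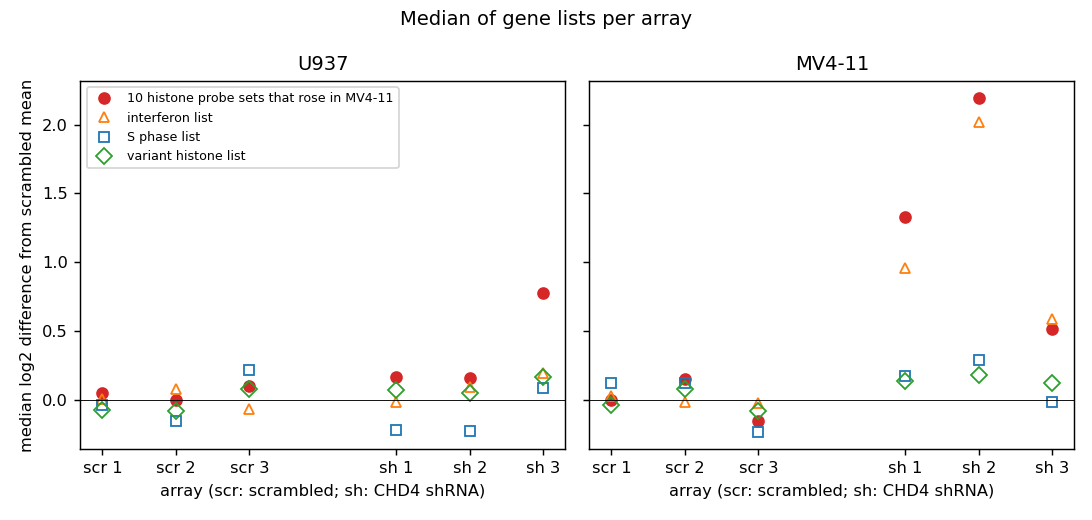
Median log2 difference from the mean of the scrambled arrays of the same line, per array, for the 10 histone probe sets that rose in MV4-11 and for the interferon, S phase and variant histone lists. On the MV4-11 CHD4 shRNA arrays the histone medians are 1.33, 2.20 and 0.52 and the interferon medians 0.95, 2.02 and 0.58, while the S phase medians stay between -0.02 and 0.29.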

How the data were processed

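The authors deposited 1 table of log2 values for 22277 probe sets on 12 arrays, and the submitters' processing notes name RMA. RMA corrects background, normalizes arrays by quantiles and summarises probes; neither its version nor joint processing of the arrays is stated. Quantile normalization hides a shift shared by most genes. After removal of 62 control probe sets, 22215 were tested; 19064 had 1 gene symbol, 1043 several and 2108 were not listed in the platform annotation. No filter on dim probe sets was applied, no detection calls were used, and the number of arrays limits the precision.

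One linear model with 4 groups was fitted with limma 3.58.1 in R 4.3.3 (lmFit, eBayes without trend, 8 residual and 4.86 prior degrees of freedom). Benjamini-Hochberg adjustment ran over all 22215 probe sets, and an adjusted p under 0.05 passed the threshold. The fit was tested on simulated data with independent noise of the same spread in all groups. Changes of 1 were called for 91 of 100 probe sets and changes of 2 for 100 of 100, with 9 false calls. Unequal spread between groups and the pairing of arrays by number were not simulated, so the test does not cover them. With 3 arrays against 3 an exact permutation test cannot give p below 0.1 and was not used.

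Named members are those past the threshold, the one with the highest mean in each class, and their other probe sets; up to 4 genes of each supporting list are named, taken from the brightest probe set of a gene. Further members are named where counts or positions are described, and were chosen after their values were seen. Members and lists were chosen with earlier results of these data known. Same-numbered scrambled and CHD4 shRNA arrays deviated together in MV4-11 (correlations 0.43, 0.47 and 0.49) but not throughout U937 (0.01, 0.34 and 0.36), so MV4-11 values are also given with the number as a block in that line. What a number stands for is not labelled. The symbols of all 41 member genes were found in the RefSeq table (GRCh38.p14), and 38 had a promoter window.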

Additional observations from a re-analysis of the deposited data

Results flagged for a closer look

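For 4 histone probe sets, all CHD4 shRNA arrays of one line moved away from the scrambled mean in one direction and all those of the other line in the opposite direction. The share of all probe sets that did so was not computed, so the 4 are described only and show no pattern of the lines. H3C1 (208575_at) was lower in U937 and higher in MV4-11, and the MV4-11 change exceeded the U937 change by 0.63. H4C1 (208046_at) did likewise with a difference of 0.29. H3C6 (214616_at) was higher in U937 and lower in MV4-11, with a difference of -0.59, and probe set 215779_s_at, shared by 2 H2B genes, had a difference of -0.46. None of the 4 passed the interaction contrast of limma, where the lowest adjusted p among the 42 probe sets of one gene was 0.94. Groups of 3 arrays were too small to test single arrays as outliers.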

How the results depend on the processing

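CHD4 passed the threshold in both lines under every alternative run. For the 42 probe sets of one gene, the count higher in MV4-11 was 10; it was 2 with only the groups compared, 0 to 17 when 1 array was left out, and 1 without both MV4-11 arrays numbered 2, a setting added after seeing the data, as was the replicate block in MV4-11 alone. The other settings gave between 7 and 15, with 14 for the replicate block within each line and 7 for the block shared by both lines. The count lower in MV4-11 was 0 to 1 when 1 array was left out. In U937 the count higher was 3 when each line had its own replicate block (beside 4.24% of all probe sets) and 0 in the other settings. The count higher between scrambled lines was 2; it was 7 with only the groups compared, 0 with the replicate block within each line or in MV4-11 alone, 5 with the shared block, 1 without both arrays numbered 2, and 0 to 4 when 1 array was left out. For the 20 of several genes, the MV4-11 count of 5 became 0 with only the groups compared, 9 with the block within each line or in MV4-11 alone, 2 with the shared block, 1 without both arrays numbered 2, and 0 to 9 when 1 array was left out. Their U937 count became 1 with the block within each line. Between scrambled lines their count of 0 became 1 without the dimmest 25%, with quantile normalization, with median centring and without both arrays numbered 2, 3 with only the groups compared, and 0 to 2 when 1 array was left out. The median change over the 42 ran from 0.06 to 0.15 in U937 and 0.05 to 0.35 in MV4-11 when 1 array was left out. No change reversed in sign among called values. For the 10 in MV4-11, leaving arrays out could not reverse it, since their groups did not overlap. The share of all probe sets that rose in MV4-11 moved too, from 3.88% in the main fit to 1.71% with only the groups compared. A block for that line only gave 6.89%, and leaving out 1 MV4-11 array gave 1.34% to 7.48%. Between scrambled lines the same block gave 1.13%, beside 2.37% in the main fit. Apart from these and the 4.24% above, shares are not given for the other settings. Those counts therefore say nothing about histone probe sets in particular. The cause of the moved counts was not tested, apart from fewer arrays in the fits that leave some out.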
